A study of Mus musculus with 20 samples.

Results

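The genes described here are 10 nuclear genes of the mitochondrial stress response, listed by name for their role: Hspd1, Hspe1, Hspa9, Lonp1, Clpp, Atf4, Atf5, Ddit3, Asns and Mthfd2. They were followed in the RNA of skeletal muscle from wild-type mice, in 20 libraries that fall into 4 groups of 5 by sex and training. The groups are trained males, non-trained males, trained females and non-trained females, and all 4 carry the wild-type genotype, with no other treatment or allele named in the labels. Which muscle was taken, how old the mice were, how they were trained and when tissue was collected are not in the labels used here, and no batch is named. Of 53465 gene identifiers in the tables, 15709 passed the filter on low counts, and all 10 genes were among them. No label ties a library to an animal of its own, so the p-values given measure only the spread between these samples, which may be technical.

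Most mitochondrial proteins are made in the cytosol, imported unfolded and folded inside the organelle. When folding or import fails, mammalian cells answer along routes that overlap. The mitochondrial unfolded protein response raises the chaperones and proteases of the matrix, and the integrated stress response raises translation of the transcription factor ATF4, which switches on genes of amino acid and folate metabolism. In skeletal muscle the ATF4 route is well known from mitochondrial myopathies, in which serine synthesis and folate enzymes are raised, and endurance exercise is known to increase mitochondrial content. The 10 genes were therefore read as 5 genes of the chaperone and protease arm (Hspd1, Hspe1, Hspa9, Lonp1 and Clpp) and 5 of the ATF4 branch (Atf4, Atf5, Ddit3, Asns and Mthfd2).

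Library totals ran from 22043145 to 38483572 expected counts, and transcripts of mitochondrial DNA took 11.2% to 15.9% of them. All 10 skeletal muscle fibre markers were measured in every library and none was at 0, with summed levels of 134600 to 156300 CPM (counts relative to library sizes adjusted by the TMM method) in trained males, 138600 to 160200 CPM in non-trained males, 140800 to 165000 CPM in trained females and 121200 to 168300 CPM in non-trained females. Among them, the slow fibre myosin Myh7, was lower in non-trained males, at 189.9 ± 143 CPM against 1410 ± 611 CPM in non-trained females (log2 difference -2.89, adjusted p = 0.016 by edgeR's quasi-likelihood test), and stood at 385.2 ± 211 CPM in trained males and 1495 ± 865 CPM in trained females (-1.96, adjusted p = 0.079 by the same test). Non-trained female library 1 stood apart, with the fewest genes detected (18727, against 19806 to 20657 in the rest of its group) and the lowest sums of its group for the macrophage (38.89 CPM), endothelial (158.1 CPM), fibroblast (110.8 CPM) and Schwann cell markers (31.57 CPM). In bulk muscle, fewer cells of a type and less RNA per cell cannot be told apart.

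Hspd1 and Hspe1 encode the chaperonin HSP60 and its lid HSP10, which together fold imported proteins in the matrix. They lie head to head on chromosome 1 of GRCm38, Hspd1 on the minus strand from 55077835 to 55088243 and Hspe1 on the plus strand from 55088132 to 55091307, so their annotated ends overlap. Between the starts of the GENCODE transcripts Hspd1-201 and Hspe1-201 lie 107 bases. Promoter windows from RefSeq (GRCm38.p6), 250 bases before to 50 after each start, were read for 9 of the 10 genes, all but Hspa9. They were searched on both strands for 3 motifs. These were the heat shock element (the units GAA, TTC and GAA, each 2 bases from the next), the amino acid response element TGATGNAA that ATF4 can bind with its partners, and TGCAAT, the core of an element bound by C/EBP and CHOP. Of 32851 windows of this length in the genome, 0.603% held the heat shock element, 3.97% held TGATGNAA and 8.4% held TGCAAT. The heat shock element was found in the windows of Hspd1 and Hspe1, twin matches on opposite strands that overlap each other. TGCAAT was also found in the windows of Hspd1 and Hspe1, at one shared position, and TGATGNAA in that of Asns. The 3 stretches are shown because they are the places where the letters of the stress response motifs occur in these windows, with the matched bases in capitals.
Hspd1 and Hspe1, heat shock element, chr1:55088053-55088082, plus strand, GRCm38: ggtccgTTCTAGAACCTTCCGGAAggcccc
Hspd1 and Hspe1, TGCAAT, chr1:55087937-55087966, plus strand, GRCm38: acgccggggcccTGCAATctgcatgcggcg
Asns, TGATGNAA, chr6:7693214-7693243, minus strand, GRCm38: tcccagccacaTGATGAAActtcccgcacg
The heat shock element matches start 35 bases beyond the Hspd1-201 start and end 56 bases before the Hspe1-201 start. The TGCAAT match lies downstream of the Hspd1-201 start, inside the span of that transcript, and ends 178 bases before the Hspe1-201 start. Counted from the RefSeq start of Hspd1, which set the window, the same match begins at -22, that is before that start. The Asns match starts 23 bases before the RefSeq start and lies inside the first exon of the GENCODE transcript Asns-201. These matches describe the sequence only, and nothing in these data shows a factor bound there.

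The other 8 genes are spread over the genome. Hspa9, the mitochondrial HSP70 (mortalin) that pulls proteins in through the inner membrane, lies on chromosome 18 from 34937414 to 34954357. The protease genes are both on chromosome 17, Lonp1 from 56614297 to 56626887 and Clpp from 56990305 to 56996188. LONP1 degrades damaged matrix proteins, and CLPP is the protease that works with the unfoldase CLPX. Atf4 (chromosome 15, 80255184 to 80257541), Atf5 (chromosome 7, 44812256 to 44816658) and Ddit3 (chromosome 10, 127290774 to 127296288) encode the transcription factors ATF4, ATF5 and CHOP. Asns (chromosome 6, 7675169 to 7693254) encodes asparagine synthetase, and Mthfd2 (chromosome 6, 83305691 to 83325908) a mitochondrial enzyme of folate metabolism, both known targets of ATF4. Atf5 overlaps Nup62 and Il4i1, and Ddit3 overlaps Mars, each on the opposite strand. GENCODE M21 also holds a second protein-coding record named Ddit3 on the same strand, from 127290829 to 127293753, inside the span of the record used here. The identifier of that second record was absent from the gene identifiers of the data, so it held no counts of its own here. The counts of the Ddit3 record used were not whole in 16 of 20 libraries. No source used here gives the strand setting of the authors' counting, so reads of these pairs could not be assigned with certainty.

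Compared per length, the 10 genes spanned a range from 243.1 ± 24.1 TPM (a measure that corrects for transcript length; SD, n = 20) for Hspa9 to 1.831 ± 0.773 TPM for Asns. Hspd1 stood at 129.9 ± 10.5 TPM, Atf4 at 99.34 ± 14.5 TPM, Hspe1 at 75.43 ± 10.2 TPM and Atf5 at 54.9 ± 15.1 TPM over the same 20 libraries. Lonp1 (46.04 ± 3.11 TPM), Clpp (21.36 ± 2.17 TPM), Ddit3 (14.13 ± 2.52 TPM) and Mthfd2 (4.242 ± 1.16 TPM) followed. Hspa9 lay above Hspd1, Lonp1 above Clpp and Ddit3 above Mthfd2 with no overlap of their ranges, whereas the ranges of the other neighbours in this order overlapped. Atf5 exceeded Lonp1 in 14 of 20 libraries, the least settled of the neighbouring pairs, and Hspd1 exceeded Atf4 in 18. The HSP60 gene was thus the second in level and its lid the fourth, with the ATF4 transcript between them.

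The spread across libraries also differed between the genes. Lonp1 TPM had a coefficient of variation of 6.7% and Hspd1 of 8.1%, against 42.2% for Asns, 27.6% for Atf5 and 27.4% for Mthfd2. The highest Lonp1 library exceeded the lowest by 1.37-fold and the highest Asns library its lowest by 3.38-fold. Counting error adds to this spread for the low genes: Asns had 35 to 160 expected counts a library and Mthfd2 68 to 314, against 10705 to 19537 for Hspa9 and 4601 to 8411 for Hspd1. The plot of the 10 genes by group shows both features.

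**Figure D1:**
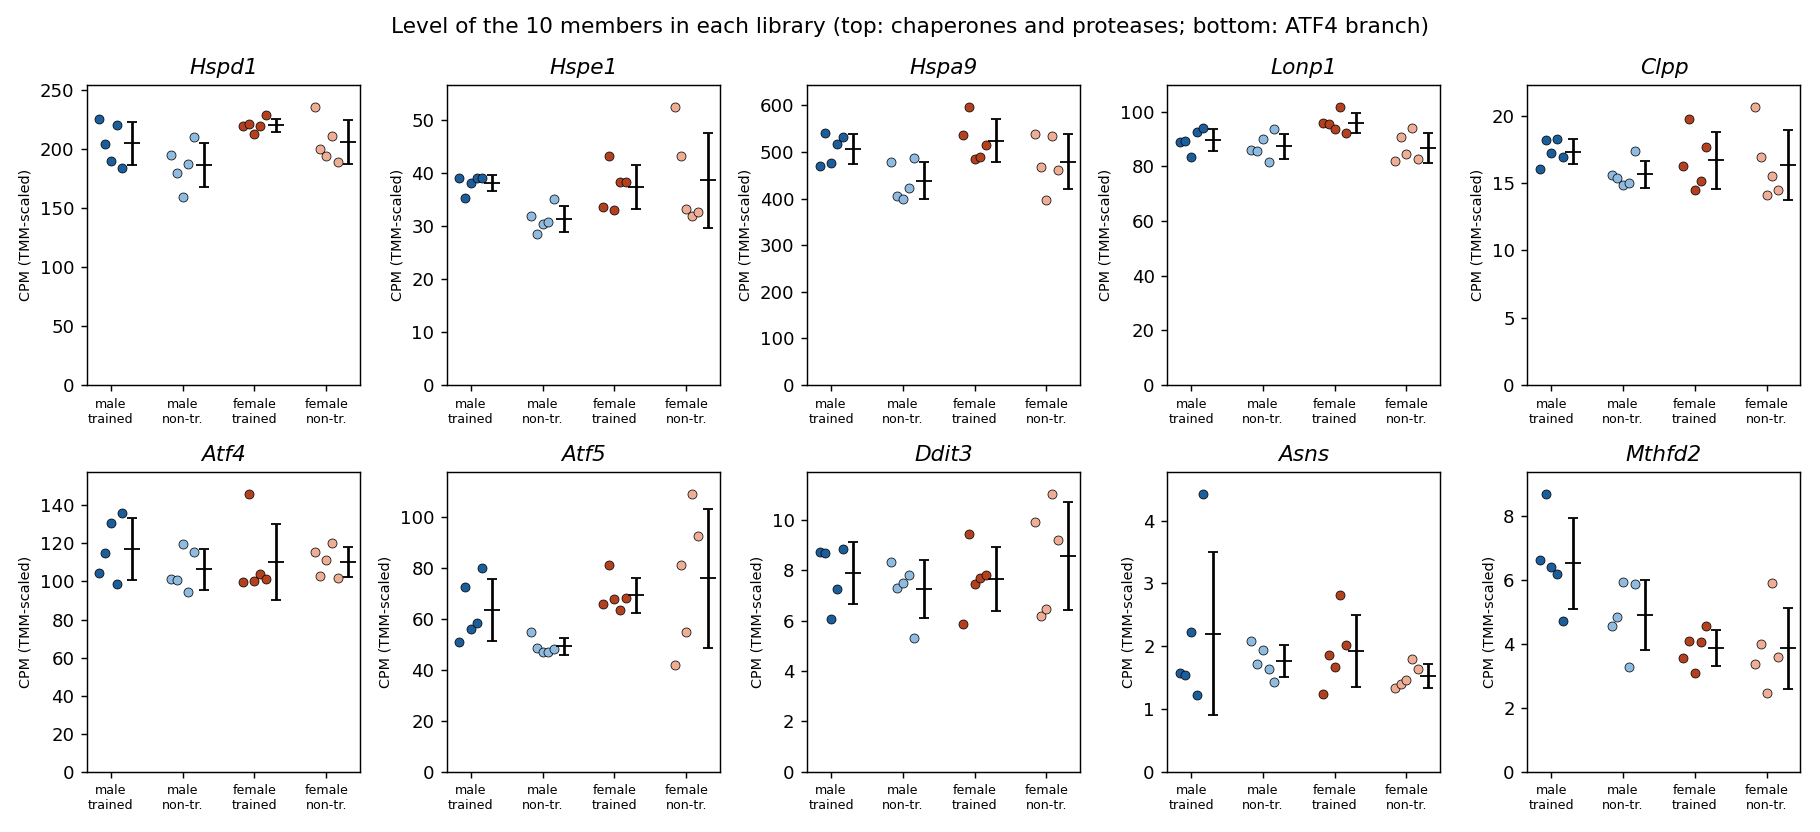
CPM of each of the 10 genes in the 20 libraries, with each group's mean and SD; the axes start at 0 and differ in scale between panels. Mthfd2 in trained males (4.704 to 8.68 CPM) lies above trained females (3.083 to 4.567 CPM), Atf5 spreads widely in non-trained females (42.0 to 109.0 CPM), and 1 trained male library stands at 4.427 CPM for Asns.

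Training was compared first within males, to ask whether the stress response genes differed in the muscle of trained animals. All 10 genes had a fitted log2 difference, trained minus non-trained, above 0 in males, where 49.9% of the 15709 genes did. None of the 10 passed an adjusted p of 0.05 by edgeR's quasi-likelihood test with Benjamini-Hochberg adjustment, and 0% of all genes did. At an unadjusted p under 0.05 stood 676 genes, or 4.3%, and DESeq2 called 5 genes, none of them among the 10. Leaving out each library in turn left 9 to 10 of the 10 above 0. The median difference was 0.15 for the 5 chaperones and proteases and 0.33 for the 5 genes of the ATF4 branch, against a median of 0.00 for all genes. Without trained male library 5 these medians were 0.17 and 0.08, so which arm had the higher median turned on that library. All 5 erythroid markers lay below 0 in trained males against non-trained males at an unadjusted p under 0.05 in the edgeR model, as 2.06% of all genes did. Their log2 differences ran from -2.23 to -1.93, and none passed the adjusted threshold. Their sum was 239.1 to 364.4 CPM in trained males and 243.4 to 3750 CPM in non-trained males, with the highest value in non-trained male library 4. Without that library all 10 genes were again above 0, with medians of 0.14 for the chaperones and proteases and 0.30 for the ATF4 branch. That fit kept non-trained male libraries 2, 3 and 5, whose erythroid sums of 1179, 485.3 and 416.1 CPM also exceeded the trained range. It also kept library 1, at 243.4 CPM within that range. The part of these markers in the values was not tested.

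Hspe1 had the highest training difference among the chaperones in males. It measured 39.07, 35.41, 38.14, 39.19 and 39.07 CPM in trained male libraries 1 to 5, against 31.93, 28.48, 30.39, 30.8 and 35.21 CPM in non-trained male libraries 1 to 5. The groups did not overlap, the highest non-trained library (35.21 CPM) lying just under the lowest trained library (35.41 CPM). Of all genes, 0.535% lay higher in trained males with no overlap, and 1.09% were separated in either direction. The log2 difference was 0.28 (SE 0.11, 95% interval 0.05 to 0.52, 1.22-fold), with an unadjusted p of 0.021 in the edgeR model and an adjusted p of 0.993. Hspa9 measured 470.1, 540.0, 476.8, 516.3 and 531.9 CPM in trained male libraries, against 477.5, 406.4, 399.6, 423.1 and 486.8 CPM in non-trained male libraries. Here non-trained libraries 1 and 5 reached into the trained range. The difference was 0.21 (95% interval 0.02 to 0.39, unadjusted p = 0.028 in the edgeR model), and Hspe1 and Hspa9 were the 2 genes of the 10 that were higher at an unadjusted p under 0.05, as 2.24% of all genes were.

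The other chaperone and protease genes were closer together. Hspd1 averaged 204.5 ± 18.3 CPM in trained males and 186.1 ± 18.7 CPM in non-trained males (mean ± SD of 5 libraries a group), a difference of 0.14 (95% interval -0.03 to 0.30). Clpp averaged 17.34 ± 0.92 CPM in trained males and 15.64 ± 1.02 CPM in non-trained males, a difference of 0.15 (-0.06 to 0.36). Lonp1 averaged 89.71 ± 4.11 CPM in trained males and 87.37 ± 4.57 CPM in non-trained males, a difference of 0.04 (-0.08 to 0.16). These intervals include 0 and extend to at most 0.36 on the log2 scale.

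Of the ATF4 branch in males, Mthfd2 and Atf5 had the largest differences, with intervals that just included 0. Mthfd2 measured 6.614, 8.68, 6.405, 6.186 and 4.704 CPM in trained male libraries, against 4.561, 4.82, 5.919, 3.27 and 5.874 CPM in non-trained male libraries. Trained library 5 lay within the non-trained range and the other 4 above it. The log2 difference was 0.41 (95% interval -0.01 to 0.84, unadjusted p = 0.057 in the edgeR model). Atf5 measured 51.04, 72.53, 55.91, 58.35 and 79.88 CPM in trained male libraries, against 54.86, 48.6, 47.14, 47.18 and 48.04 CPM in non-trained male libraries. Trained library 1 lay among the non-trained libraries, and the difference was 0.37 (-0.02 to 0.76, unadjusted p = 0.063 in the edgeR model). Atf4 averaged 117.1 ± 16.1 CPM in trained males and 106.3 ± 10.7 CPM in non-trained males, a difference of 0.14 (-0.09 to 0.37). Ddit3 averaged 7.902 ± 1.22 CPM in trained males and 7.243 ± 1.16 CPM in non-trained males, a difference of 0.13 (-0.22 to 0.48).

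Asns turned on a single library. It measured 1.581, 1.548, 2.221, 1.23 and 4.427 CPM in trained male libraries, against 2.082, 1.71, 1.938, 1.635 and 1.437 CPM in non-trained male libraries. Trained library 5 stood apart, while trained libraries 1 and 2 lay within the non-trained range, library 4 below it and library 3 just above it. The difference was 0.33 (95% interval -0.27 to 0.92) with all libraries and -0.10 without trained male library 5. The same library had the highest summed level of the adipocyte markers of its group, 465.5 CPM against 125.1 to 267.4 CPM in the other trained male libraries, and its part in the Asns value was not tested.

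In females training gave no common direction across the 10 genes. Of the 10, 6 were above 0, where 50.9% of all genes were, and this number ran from 4 to 8 when each library was left out in turn. None of the 10 passed the adjusted threshold by the edgeR test, and 0% of all genes did, with 1347 genes, or 8.57%, at an unadjusted p under 0.05. DESeq2 called 33 genes, none of them among the 10. The medians were 0.10 for the chaperones and proteases and -0.00 for the ATF4 branch. With each library left out they ran from 0.06 (without non-trained library 3) to 0.13 (without non-trained library 1) and from -0.12 (without non-trained library 3 or trained library 2) to 0.03 (without non-trained library 4). All 5 Schwann cell markers lay above 0 in trained females against non-trained females, 4 of 5 at an unadjusted p under 0.05 (median 1.09, none past the adjusted threshold), with sums of 53.71 to 244.5 CPM in trained females and 31.57 to 118 CPM in non-trained females. Of the 6 adipocyte markers 5 lay above 0, 3 of them at an unadjusted p under 0.05 in the edgeR model (median 0.77, none past the adjusted threshold). The adipocyte sums did not overlap, at 252.4 to 363.7 CPM in trained females and 149.3 to 246.8 CPM in non-trained females. The part of the Schwann cell and adipocyte markers in the values of the 10 genes was not tested. Lonp1 was the 1 gene of the 10 at an unadjusted p under 0.05, higher in trained females, as 4.27% of all genes were. Lonp1 measured 95.99, 95.47, 93.75, 101.7 and 92.29 CPM in trained female libraries, against 81.84, 90.85, 84.7, 93.91 and 82.57 CPM in non-trained female libraries. Only non-trained library 4 reached into the trained range. The difference was 0.14 (SE 0.06, 95% interval 0.02 to 0.26, 1.10-fold, adjusted p = 0.51 by edgeR's quasi-likelihood test).

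Hspd1 and Hspe1, the chaperonin pair, both had intervals that included 0 in females. Hspd1 measured 219.2, 220.6, 212.8, 219.3 and 228.2 CPM in trained female libraries, against 235.2, 199.8, 193.5, 210.8 and 188.8 CPM in non-trained female libraries. Non-trained library 1 stood above every trained library and the other 4 below every one of them, and the difference was 0.10 (95% interval -0.07 to 0.26). Hspe1 measured 33.69, 43.22, 33.09, 38.46 and 38.35 CPM in trained female libraries, against 52.51, 43.24, 33.31, 31.93 and 32.62 CPM in non-trained female libraries. The same non-trained library 1 was again the highest, and the difference was -0.05 (-0.29 to 0.18). Without that library, which also stood apart in its cell markers, Hspe1 stood at 0.08 and Hspd1 at 0.15. Hspa9 averaged 524.4 ± 45.2 CPM in trained females and 479.4 ± 58.9 CPM in non-trained females, a difference of 0.13 (-0.05 to 0.31). Clpp averaged 16.69 ± 2.11 CPM in trained females and 16.34 ± 2.63 CPM in non-trained females, a difference of 0.03 (-0.18 to 0.24).

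The ATF4 branch in females had differences on both sides of 0. Atf4 averaged 110.2 ± 20.1 CPM in trained females and 110.3 ± 7.9 CPM in non-trained females (mean ± SD of 5 libraries a group), with 146.0 CPM in trained library 2 and 99.95 to 103.7 CPM in the other trained libraries. Atf5 measured 65.74, 81.08, 67.96, 63.37 and 68.23 CPM in trained female libraries, against 42.0, 81.12, 55.02, 109.0 and 92.56 CPM in non-trained female libraries. The non-trained libraries lay on both sides of all the trained ones, and the difference was -0.13 (95% interval -0.52 to 0.26). Ddit3 averaged 7.655 ± 1.27 CPM in trained females and 8.551 ± 2.14 CPM in non-trained females, a difference of -0.16 (-0.51 to 0.19). Asns averaged 1.922 ± 0.578 CPM in trained females and 1.528 ± 0.189 CPM in non-trained females, a difference of 0.33 (-0.27 to 0.94). Mthfd2 averaged 3.865 ± 0.568 CPM in trained females and 3.854 ± 1.27 CPM in non-trained females, a difference of 0.01 (-0.43 to 0.45).

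**Figure D2:**
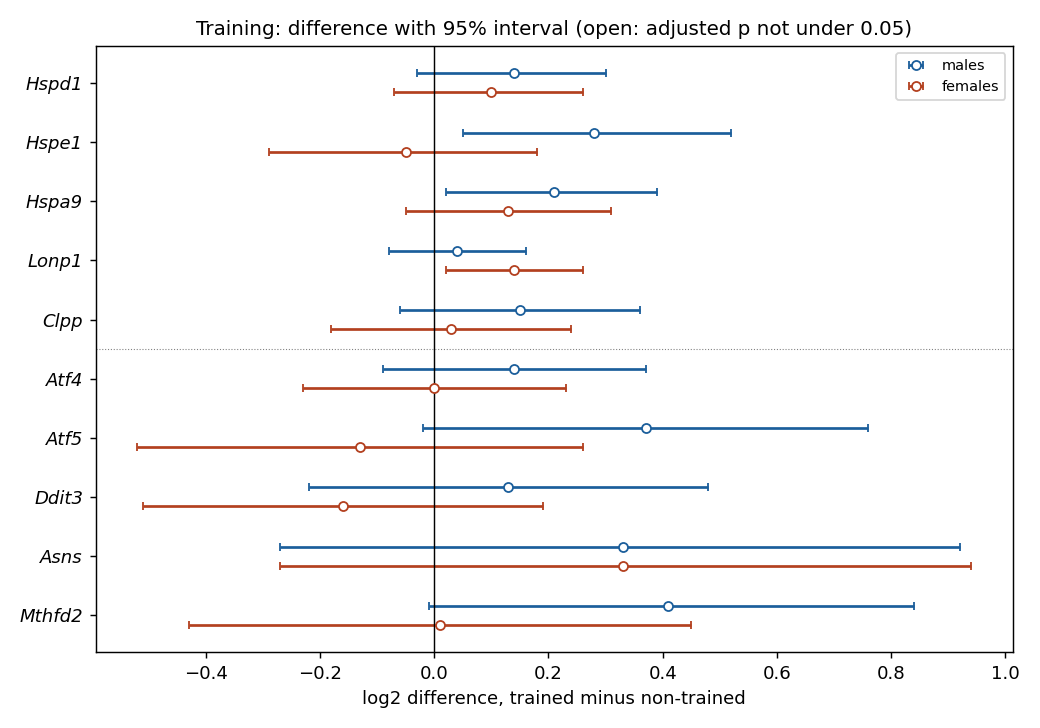
Log2 difference, trained minus non-trained, of each gene in males and in females, with 95% intervals. All 10 points for males lie above 0 and 6 of 10 for females do, and no point passed an adjusted p of 0.05.

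Averaged over both sexes, 9 of the 10 genes were above 0, where 50.6% of all genes were, and none passed the adjusted threshold, as 0.0127% of all genes did. Hspa9 (0.17, 95% interval 0.04 to 0.30), Lonp1 (0.09, 0.01 to 0.18) and Hspd1 (0.12, 0.00 to 0.23) were higher at an unadjusted p under 0.05, as 4.69% of all genes were. Their unadjusted p-values in the edgeR model were 0.013, 0.037 and 0.049, and their adjusted p-values 0.41, 0.51 and 0.54. All 3 belong to the chaperone and protease arm, though the median difference was 0.12 for that arm and 0.12 for the ATF4 branch. Hspe1 (0.12), Clpp (0.09), Atf4 (0.07), Atf5 (0.12), Asns (0.33) and Mthfd2 (0.21) were above 0 with intervals that included it, and Ddit3 stood at -0.02.

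Whether the training difference itself varied with sex was tested by the interaction, the male effect minus the female effect. None of the 10 genes passed the adjusted threshold by the edgeR test, and 0% of all genes did, with 656 genes, or 4.18%, at an unadjusted p under 0.05 and 1 gene called by DESeq2, not among the 10. Of the 10, 8 were above 0, where 50.1% of all genes were. Hspe1 had an interaction of 0.34 (95% interval 0.00 to 0.67, unadjusted p = 0.049 in the edgeR model, adjusted p = 0.999) and Atf5 of 0.50 (-0.05 to 1.05). Mthfd2 had 0.40 (-0.21 to 1.01) and Lonp1 -0.11 (-0.27 to 0.06). All 5 erythroid markers (median -2.37) and all 5 Schwann cell markers (median -1.80) were below 0 in the interaction at an unadjusted p under 0.05, as 2.15% of all genes were, and none passed the adjusted threshold. A difference in training response between the sexes was therefore not shown for any of the 10 genes.

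Sex was then compared within each training state, as male minus female. In trained mice Mthfd2 was higher in males, and it was the 1 gene of the 10 that passed the adjusted threshold in any of the 6 comparisons by the edgeR test. Of all genes, 3.39% passed as higher in trained males and 5.6% passed in either direction. Mthfd2 measured 6.614, 8.68, 6.405, 6.186 and 4.704 CPM in trained male libraries, against 3.541, 4.079, 3.083, 4.054 and 4.567 CPM in trained female libraries. Every trained male library lay above every trained female library, as was so for 3.92% of all genes, and 7.38% were separated in either direction. The log2 difference was 0.75 (SE 0.21, 95% interval 0.32 to 1.18, 1.68-fold with an interval of 1.25 to 2.27), with an adjusted p of 0.037 by edgeR's quasi-likelihood test with Benjamini-Hochberg adjustment.

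The Mthfd2 call was close to the threshold. With each library left out in turn the difference ran from 0.63 to 0.85 and the adjusted p from 0.02 to 0.11 by the edgeR test. The gene passed in 12 of 20 such fits, among them every fit without a non-trained library, which keeps both trained groups whole. Among the fits without a trained library, it passed only without trained female library 5 or trained male library 5. It did not pass without trained female library 1 (adjusted p = 0.075), 2 (0.064), 3 (0.083) or 4 (0.065), nor without trained male library 1 (0.062), 2 (0.11), 3 (0.072) or 4 (0.051), by the same edgeR test. In non-trained mice Mthfd2 measured 4.561, 4.82, 5.919, 3.27 and 5.874 CPM in male libraries, against 3.356, 3.983, 2.463, 5.886 and 3.582 CPM in female libraries. Female library 4 and male library 3 were nearly level at the top, the groups overlapped, and the difference was 0.35 (95% interval -0.08 to 0.78, adjusted p = 0.34 by edgeR's quasi-likelihood test). The interaction of 0.40, given above, did not show that the sex difference varied with training.

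Macrophage markers moved with sex in the same direction. All 8 were above 0 in both training states, 6 of 8 passing as higher in trained males and 4 of 8 as higher in non-trained males by the edgeR test, as 3.39% and 3.14% of all genes did, and none was at 0 in any library. Their summed level was 105.8 to 623.5 CPM in trained males against 60.44 to 121.1 CPM in trained females, and 132.6 to 305.7 CPM in non-trained males against 38.89 to 111.4 CPM in non-trained females. In trained male libraries 1 to 5 the macrophage markers summed to 193.9, 236.6, 623.5, 105.8 and 198.0 CPM. Mthfd2 in the same libraries, in that order, measured 6.614, 8.68, 6.405, 6.186 and 4.704 CPM. Other marker lists lay on a single side of 0 as well. Schwann cell markers were all below 0 in trained males against trained females (median -0.97), 4 of 5 at an unadjusted p under 0.05, as 9.31% of all genes were, and summed to 66.07 to 88.54 CPM in trained males and 53.71 to 244.5 CPM in trained females. Erythroid markers were all above 0 in non-trained males against non-trained females (median 2.03), 2 of 5 passing the adjusted threshold, with sums of 243.4 to 3750 CPM in non-trained males and 193.6 to 470.7 CPM in non-trained females. Schwann cell markers were all above 0 in non-trained mice (median 0.52), and erythroid markers all below 0 in trained mice (-0.31). Adipocyte markers were all below 0 in trained mice (-0.49), where the 2 satellite cell markers were above it (0.43). Endothelial markers were all above 0 in non-trained mice (0.19). In these further cases no marker stood at an unadjusted p under 0.05 in the edgeR model. The part of these cells in the differences of the 10 genes was not tested.

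The other 9 genes did not pass in trained mice, and 6 of the 10 were above 0, where 50.5% of all genes were. Hspd1 (-0.11), Lonp1 (-0.10), Hspa9 (-0.05) and Atf5 (-0.12) had fitted differences below 0, and Hspe1 (0.03), Clpp (0.05), Atf4 (0.09), Ddit3 (0.05) and Asns (0.20) above it. The Asns value was -0.22 without trained male library 5. Every one of these intervals included 0.

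In non-trained mice none of the 10 passed, as 5.21% of all genes did in either direction, and 3 of 10 were above 0, where 50.8% of all genes were. No gene of the 10 had groups that did not overlap, as 6.38% of all genes had. Atf5 and Hspe1 were lower in males at an unadjusted p under 0.05, as 10.1% of all genes were. Atf5 measured 54.86, 48.6, 47.14, 47.18 and 48.04 CPM in non-trained male libraries, against 42.0, 81.12, 55.02, 109.0 and 92.56 CPM in non-trained female libraries. The males lay close together, and of the females library 1 lay below all of them and the other 4 above. The difference was -0.63 (SE 0.19, 95% interval -1.02 to -0.23, 0.648-fold, unadjusted p = 0.0035, adjusted p = 0.058 by edgeR's quasi-likelihood test). With each library left out in turn the difference ran from -0.78 to -0.46, and the adjusted p from 0.0067 to 0.12 by the same test. Atf5 passed in 2 of 20 such fits, without non-trained female library 1 (0.0067) or 3 (0.029) by the edgeR test. It also passed by DESeq2 (adjusted p = 0.012), and under no other alternative.

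Hspe1 measured 31.93, 28.48, 30.39, 30.8 and 35.21 CPM in non-trained male libraries, against 52.51, 43.24, 33.31, 31.93 and 32.62 CPM in non-trained female libraries. Female libraries 1 and 2 carried most of the gap, and the other 3 lay within the male range. The difference was -0.31 (95% interval -0.54 to -0.07, unadjusted p = 0.014, adjusted p = 0.12 by edgeR's quasi-likelihood test), and -0.18 without female library 1 (adjusted p = 0.32 by the same test). Hspd1 (-0.14), Hspa9 (-0.13), Clpp (-0.06), Atf4 (-0.05) and Ddit3 (-0.24) were below 0, and Lonp1 (0.01), Asns (0.21) and Mthfd2 (0.35) above it, all with intervals that included 0.

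**Figure D3:**
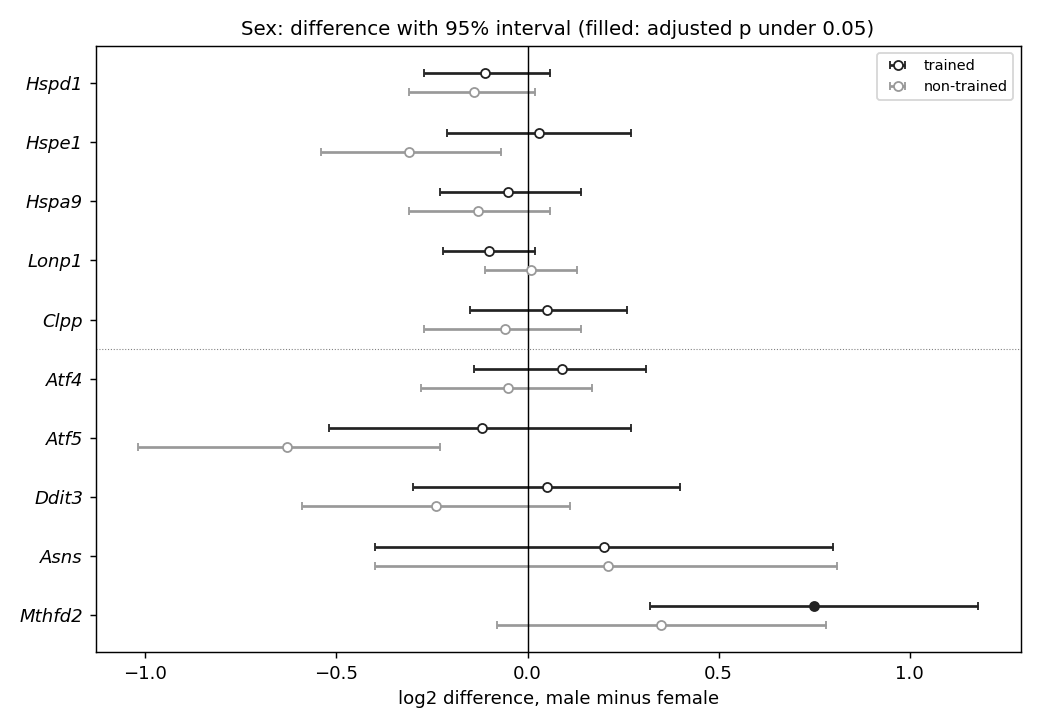
Log2 difference, male minus female, of each gene in trained and in non-trained mice, with 95% intervals; a filled point passed an adjusted p of 0.05. Mthfd2 in trained mice (0.75) is the filled point, and Atf5 in non-trained mice (-0.63) lies farthest below 0.

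The arms were set side by side as the mean log2 CPM of their 5 genes in each library. The chaperone and protease arm averaged 6.50 ± 0.04 in trained males, 6.34 ± 0.10 in non-trained males, 6.53 ± 0.09 in trained females and 6.46 ± 0.15 in non-trained females (mean ± SD of 5 libraries a group). The ATF4 branch averaged 3.91 ± 0.20 in trained males, 3.67 ± 0.11 in non-trained males, 3.74 ± 0.18 in trained females and 3.72 ± 0.26 in non-trained females. The chaperone arm minus the ATF4 branch was 2.60 ± 0.22 in trained males, 2.67 ± 0.16 in non-trained males, 2.79 ± 0.13 in trained females and 2.74 ± 0.31 in non-trained females. Within each sex the trained and non-trained means differed by less than the SD of either group. All 4 ranges overlapped, at 2.31 to 2.89 in trained males, 2.46 to 2.89 in non-trained males, 2.67 to 3.01 in trained females and 2.33 to 3.11 in non-trained females. Non-trained female libraries 1 and 4 held both ends, at 3.11 and 2.33. The level of this difference reflects the mix of genes in each arm, so only its change between groups can be read.

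**Figure D4:**
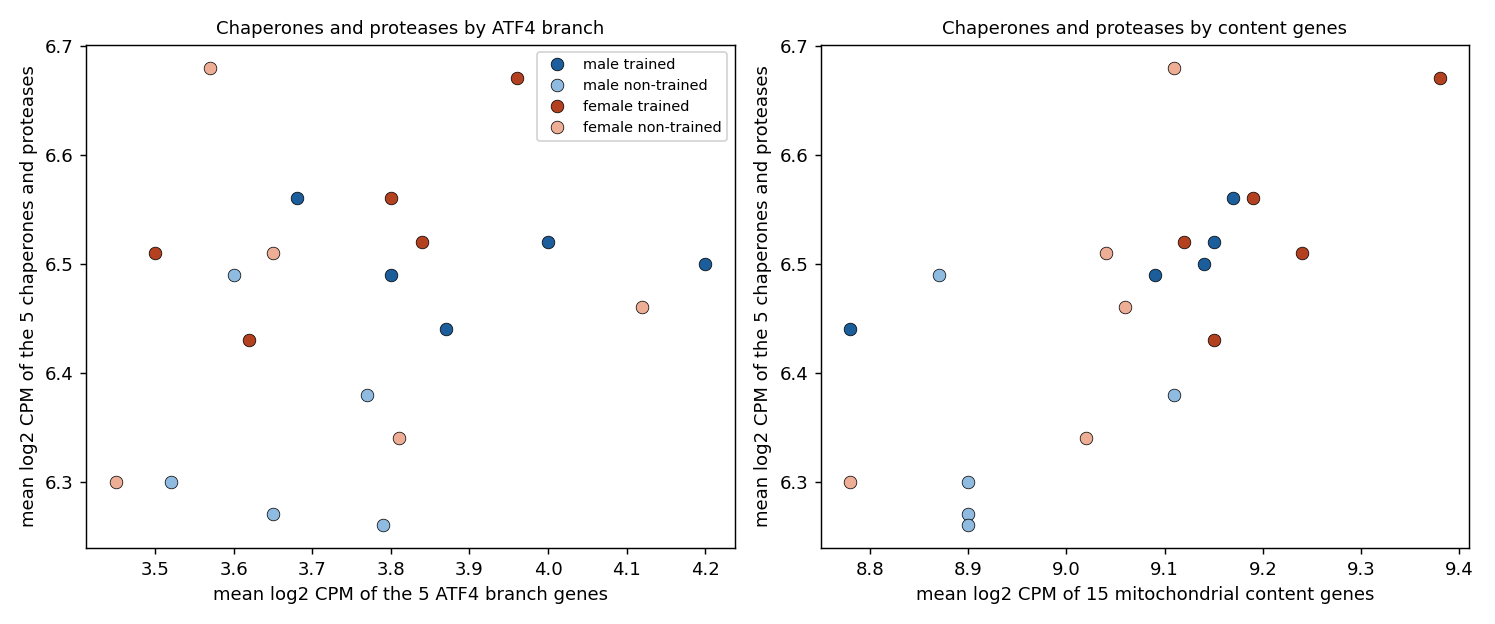
Mean log2 CPM of the 5 chaperone and protease genes (vertical axes) against that of the 5 ATF4 branch genes (left panel) and of 15 genes of mitochondrial content (right panel), each point a library, coloured by group. Trained male library 5 has the highest ATF4 branch mean (4.20) and non-trained female library 1 the highest chaperone mean (6.68), and the group ranges overlap on both axes of the left panel, while on the content axis trained females (9.12 to 9.38) lie above non-trained females (8.78 to 9.11).

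Genes of mitochondrial content gave a yardstick for the chaperones. The list held 15 genes of the respiratory chain, the citric acid cycle and the outer membrane. Of these, 14 were above 0 with training in males and 14 in females, where 49.9% and 50.9% of all genes were. None passed the adjusted threshold, and 0% of all genes did in either sex. At an unadjusted p under 0.05 in the edgeR model 2 were higher in males and 11 in females, as 2.24% and 4.27% of all genes were. Their median training difference was 0.16 in males and 0.24 in females, beside 0.15 in males and 0.10 in females (0.06 to 0.13 with each library left out) for the chaperones and proteases. The chaperone mean minus the content mean was -2.56 ± 0.13 in trained males and -2.60 ± 0.13 in non-trained males, and -2.68 ± 0.06 in trained females and -2.54 ± 0.10 in non-trained females (mean ± SD of 5 libraries a group). In females the means differed by more than the SD of either group, though the ranges overlapped (-2.73 to -2.61 in trained and -2.68 to -2.43 in non-trained females), and in males by less than the SD.

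Across the 20 libraries, with the group means removed, 8 pairs of the genes were examined for a shared course. Hspd1 and Hspe1 gave Pearson's r of 0.51 (permutation p = 0.022, adjusted over the 8 pairs 0.11) and Spearman's rho of 0.49 (permutation p = 0.028, adjusted 0.11). Without the 2 libraries farthest from the median of Hspd1, non-trained female 1 and non-trained male 3, r was 0.37. Hspd1 and Hspa9 gave r of 0.51 (permutation p = 0.041, adjusted 0.11) and rho of 0.54 (permutation p = 0.025, adjusted 0.11), with r of 0.37 without the same 2 libraries. Neither chaperone pair passed the adjustment.

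Within the ATF4 branch no pair passed the adjustment either. Atf4 and Asns gave r of 0.44 (permutation p = 0.12, adjusted 0.25) and rho of 0.52 (permutation p = 0.052, adjusted 0.14), and r of 0.37 without trained female library 2 and trained male library 5. Atf4 and Ddit3 gave r of 0.20 (permutation p = 0.39, adjusted 0.52) and rho of 0.24 (permutation p = 0.31, adjusted 0.50). Atf4 and Atf5 gave r of 0.20 (permutation p = 0.31, adjusted 0.49) and rho of 0.20 (permutation p = 0.38, adjusted 0.51). Without those 2 libraries these r values were -0.06 and -0.03. With library size alone as the scaling and all 20 libraries, r was 0.31 and 0.37, so the values depended on the scaling. On that scaling the 2 libraries farthest from the Atf4 median were trained female 2 and trained male 3, and without them r was 0.33 and 0.38. The values without 2 libraries thus left out different libraries under each scaling and do not show the part of the scaling alone. Atf4 and Ddit3 gave r of 0.57 in females and -0.30 in males. Asns and Mthfd2, both known targets of ATF4, gave r of -0.11 (permutation p = 0.64, adjusted 0.73) and rho of 0.07 (permutation p = 0.79, adjusted 0.85), with r of 0.17 without the 2 libraries farthest from the Asns median. The proteases Lonp1 and Clpp gave r of -0.02 (permutation p = 0.94, adjusted 0.94) and rho of 0.05 (permutation p = 0.85, adjusted 0.85), with r of -0.10 without 2 libraries. Between the arms, Hspd1 and Asns gave r of -0.48 (permutation p = 0.026, adjusted 0.11) and rho of -0.41 (permutation p = 0.10, adjusted 0.20), and r of -0.51 without 2 libraries. With library size alone r was -0.21 (permutation p = 0.30), and it was -0.06 in females and -0.65 in males.

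**Figure D5:**
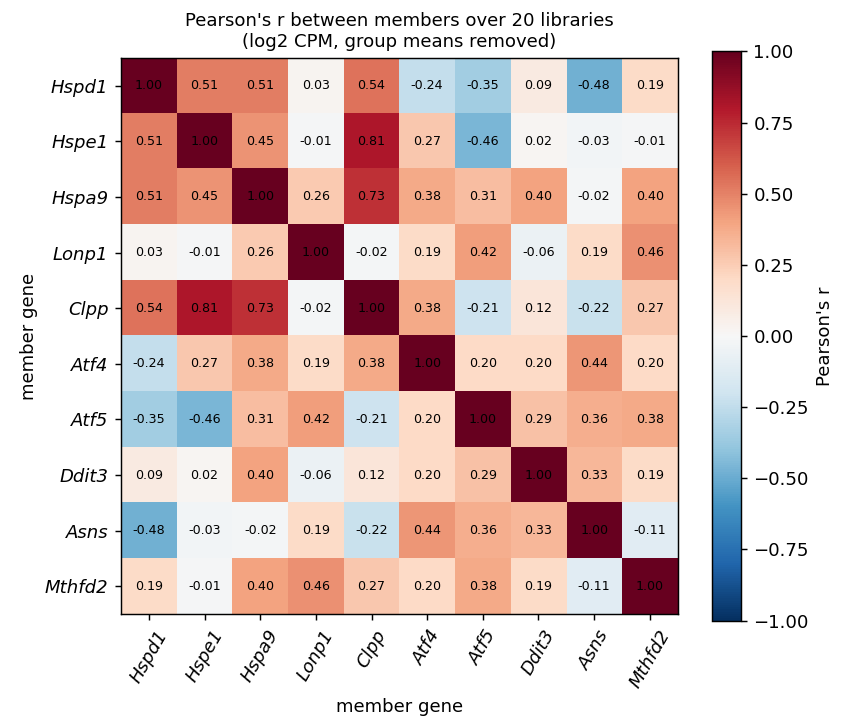
Pearson's r between each pair of the 10 genes over 20 libraries, as log2 CPM with the group means removed, given as a description. Clpp with Hspe1 (0.81) and with Hspa9 (0.73) hold the highest values, while Clpp with its fellow protease gene Lonp1 stands at -0.02. Non-trained female library 1 was the highest of its group for Clpp (20.64 CPM), Hspe1 (52.51 CPM) and Hspa9 (538.0 CPM). The r values of these Clpp pairs were not computed without it.

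The genes most like Hspd1 across libraries, among 8934 genes with a mean of at least 5 CPM, were Cacybp (r = 0.83), Ip6k3 (0.82), Ahsa1 (0.81), Cct8 (0.80) and Chrna1 (0.80), over 20 libraries with group means removed. Ahsa1 encodes a co-chaperone of HSP90 and Cct8 a subunit of the cytosolic chaperonin. Most like Atf4 were Gcn1l1 (0.82), Ing1 (0.79), Eif1 (0.77), Eftud2 (0.76) and Lrg1 (0.76). Gcn1l1 encodes a partner of the kinase GCN2, and Eif1 a translation initiation factor. Most like Asns were B3galt2 (0.76), S1pr3 (0.73), Retn (0.73), Rexo1 (0.71) and Cox8a (0.71), of which Retn encodes the adipocyte hormone resistin. These values share the libraries' depth and composition and are a description without a test.

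The wider pathways were read from lists of genes. Of 21 other mitochondrial chaperones and proteases, 18 were above 0 with training in males and 16 in females, where 49.9% and 50.9% of all genes were. The median differences were 0.08 and 0.07. None passed, and 0% of all genes did in either sex. With sex in trained mice 2 of 21 were lower in males, as 2.22% of all genes were, namely Clpx, which unfolds proteins for CLPP, and Oma1, an inner membrane protease that reports mitochondrial stress. Clpx averaged 60.72 ± 8.19 CPM in trained males and 74.56 ± 8.01 CPM in trained females (log2 difference -0.30, adjusted p = 0.038 by edgeR's quasi-likelihood test). Oma1 averaged 19.92 ± 1.55 CPM in trained males and 23.47 ± 1.17 CPM in trained females (-0.24, adjusted p = 0.047 by the edgeR test). None of the 21 passed with sex in non-trained mice, as 5.21% of all genes did.

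Of 31 other ATF4 target genes, 28 were tested, and none passed for training in either sex, where 0% of all genes did. With sex in trained mice 3 of 28 were higher in males and 1 lower, as 3.39% and 2.22% of all genes were. Aldh18a1, which makes the precursor of proline, averaged 6.226 ± 1.75 CPM in trained males and 2.341 ± 0.488 CPM in trained females (log2 difference 1.41, adjusted p = 0.0046 by edgeR's quasi-likelihood test). Vldlr, a lipoprotein receptor, stood at 325.6 ± 54.8 CPM in trained males and 192.6 ± 28.1 CPM in trained females (0.76, adjusted p = 0.0086 by the edgeR test), and Nars, an asparaginyl-tRNA synthetase, at 121.9 ± 5.70 CPM in trained males and 102.8 ± 5.42 CPM in trained females (0.25, adjusted p = 0.029). Cth, an enzyme of cysteine synthesis, was lower, at 1.88 ± 0.268 CPM in trained males and 4.677 ± 2.20 CPM in trained females (-1.31, adjusted p = 0.0069 by the edgeR test). In non-trained mice Vldlr was the 1 gene of the 28 that passed, higher in males as 3.14% of all genes were (0.68, adjusted p = 0.017 by the edgeR test). The median over the 28 genes was -0.01 in trained and 0.00 in non-trained mice, beside 0.75 and 0.35 for Mthfd2.

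Of 13 genes that control the integrated stress response, 2 were lower in trained males than in trained females, as 2.22% of all genes were. These were Eif2ak1, a kinase of the initiation factor eIF2 (-0.27, adjusted p = 0.020), and Ppp1r15a, which directs its dephosphorylation (-0.50, adjusted p = 0.039), by edgeR's quasi-likelihood test. In non-trained mice 1 of 13 passed, where 2.07% of all genes were lower. This was Eif2b1, a subunit of the exchange factor of eIF2, lower in males (-0.38, adjusted p = 0.019 by the edgeR test). Among 18 genes of the endoplasmic reticulum stress response none passed in any of the 6 comparisons. Of all genes, 5.6% passed with sex in trained mice and 5.21% in non-trained mice, in either direction. Of 15 cytosolic heat shock genes, Hspb8, a small heat shock protein of muscle, was higher in males in trained (0.43, adjusted p = 0.038) and in non-trained mice (0.49, adjusted p = 0.020 by the edgeR test). No other of the 15 passed with sex, and 3.39% of all genes passed as higher in trained males and 3.14% in non-trained males. No gene of these lists passed for training in either sex, for the mean of both or for the interaction by the edgeR test. Of all genes, 0% passed for training in males, in females and for the interaction, and 0.0127% for the mean.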

How the data were processed

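Poly(A) RNA was sequenced from directional libraries, per the labels' protocols. The authors deposited a table per library with RSEM expected counts and TPM per gene, per the file headers. The submitters' processing notes name STAR 2.5.1 and RSEM 1.3.1, the build GRCm38, limma and edgeR, and the trimmers cutadapt and Trim Galore. Neither the annotation release nor the strand setting is given in these sources. Of 53465 identifiers, 53360 matched GENCODE M21, which gave symbols and coordinates, and the unmatched ones held 0.00673% of the counts. Reads shared by several genes are split by estimation in RSEM, so part counts occurred in Hspd1, Hspe1, Hspa9, Atf5 and Ddit3, and processed pseudogenes of the chaperones held at most 42 counts in any library.

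After rounding, 15709 genes passed filterByExpr at a minimum count of 10, and TMM gave the scaling. A joint fit of the 4 groups was made in edgeR 4.0.16 (R 4.3.3; robust quasi-likelihood, 16 residual degrees of freedom). Genes with a Benjamini-Hochberg adjusted p under 0.05 over all genes were called. SE is the absolute log2 difference over the square root of F. Log2 CPM used a prior count of 2. TPM was used to order genes by level, for the spread of those levels and for the log2(TPM + 0.1) alternative, and in no test. Permutation tests were two-sided with 100000 resamples. The fit was tested on simulated counts.

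Alternatives were DESeq2 1.42.0, voom of limma 3.58.1, DESeq2-type (RLE) size factors, library size alone, no filter, only the 2 groups compared, and each library left out. The members, gene lists and rule for named genes were chosen with earlier results of these data known. The rule names all 10 genes, per list and comparison up to 4 genes of smallest p (or up to 6 past the threshold), and the 5 genes most like Hspd1, Atf4 and Asns. Genes of the lists that did not pass were given as counts.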

Additional observations from a re-analysis of the deposited data

Results flagged for a closer look

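Within the groups of 5 libraries, 40 sets of values (10 genes in 4 groups) were examined for a library whose gap to its nearest neighbour took up more than a share of 0.71 of the group's range. Chance gives such a gap in about 1 in 20 groups, and 5 were found. Trained male library 2 was low for Hspe1, at 35.41 CPM with 38.14 to 39.19 CPM in the other trained males. Non-trained male library 5 was high for Clpp, at 17.4 CPM with 14.85 to 15.58 CPM in the others. Trained female library 2 was high for Atf4, at 146.0 CPM with 99.95 to 103.7 CPM in the others, and also for Atf5, at 81.08 CPM with 63.37 to 68.23 CPM in the others. Non-trained male library 1 was high for Atf5, at 54.86 CPM with 47.14 to 48.6 CPM in the others.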

How the results depend on the processing

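No paired analysis was possible because the labels number each library once and no number is shared between groups. Over 60 fitted differences (10 genes in 6 comparisons) and 26 alternatives, 1474 of 1540 values kept direction and side of the threshold, 55 changed sign, 8 fell out of the calls and 3 entered them. Mthfd2 in trained mice passed under DESeq2, voom, RLE size factors, library size alone, no filter and the 2 groups alone. Counts of called genes moved more. DESeq2 called 33 genes for training in females, 5 in males, 30 for the mean, 1 for the interaction, 1401 for sex in trained mice and 1465 in non-trained mice. For the mean, voom called 0 genes and no filter 1. For sex, no filter called 558 genes in trained mice, and the fit of the 2 groups alone 448 in non-trained mice. With each library left out, calls ran from 0 to 1 for training in females and in males, 0 to 7 for the mean, 494 to 1239 for sex in trained mice and 435 to 1038 in non-trained mice.

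The differences that changed sign were these. With library size alone they were Mthfd2 with training in females (-0.01), Asns in the interaction (0.01, also with no filter) and Hspa9 with sex in trained mice (0.02). Voom gave Ddit3 0.01 for the mean. Lonp1 with sex in non-trained mice was -0.0003 by DESeq2, -0.0009 with RLE and -0.01 with no filter. With each library left out, training in females ran from -0.11 to 0.08 for Hspe1, -0.04 to 0.13 for Clpp, -0.12 to 0.03 for Atf4, -0.29 to 0.03 for Atf5 and -0.12 to 0.21 for Mthfd2. Training in males ran from -0.10 to 0.47 for Asns, and the mean from -0.07 to 0.04 for Ddit3. The interaction ran from -0.01 to 0.10 for Hspd1 and -0.43 to 0.18 for Asns. Sex in trained mice ran from -0.01 to 0.09 for Hspe1, -0.07 to 0.0012 for Hspa9, -0.03 to 0.13 for Ddit3 and -0.22 to 0.38 for Asns. Sex in non-trained mice ran from -0.03 to 0.04 for Lonp1 and -0.13 to 0.03 for Clpp.

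On log2(TPM + 0.1) the chaperone arm minus the ATF4 branch was 2.32 in trained males, 2.36 in non-trained males and 2.47 in trained females. The value for non-trained females is not given here, so the training difference in females cannot be read on that scale. On log2 CPM the same group means were recomputed with single libraries removed. With each library left out the arm difference on log2 CPM ran from 2.52 to 2.67 in trained males and 2.62 to 2.72 in non-trained males. In females it ran from 2.74 to 2.82 in trained and 2.64 to 2.84 in non-trained libraries. Correlations that changed sign were Lonp1 with Clpp (0.08 with library size alone), Asns with Mthfd2 (0.01 with library size alone, 0.17 without 2 libraries), Atf4 with Ddit3 (-0.06) and Atf4 with Atf5 (-0.03), both without 2 libraries. Hspd1 with Asns kept its sign but was -0.21 with library size alone. The cause was not tested. The low counts of Asns and Mthfd2 limit what could be detected for them.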
